A study of Mus musculus with 5 samples.

Results

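Leukotrienes and prostaglandins are lipid mediators that immune cells make from arachidonic acid. The results below follow 8 genes of these pathways, chosen by name among the 55450 gene IDs of the deposited tables and all found there. The choice was made with earlier results of these data known. The 8 genes are Alox5, Alox5ap, Lta4h, Ltc4s and Ltb4r1 of the leukotriene branch, and Ptgs1, Ptgs2 and Hpgds of the prostaglandin branch. They were followed through progenitors of the mouse bone marrow by single-cell RNA sequencing with the 10x Genomics 3' v3 kit, which counts captured transcripts as unique molecular identifiers (UMIs).

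All groups came from wild-type Balb/C mice of 8 to 12 weeks. Marrow of the femur, tibia and fibula was enriched for c-Kit with magnetic beads, depleted of lineage-positive and dead cells, and sorted into 3 gates. LMPP (lymphoid-primed multipotent progenitors) were c-Kit+Sca-1+ cells with CD34 and Flt3 and gave 1 library of 7511 cells. CMP (common myeloid progenitors) were c-Kit+Sca1- cells with CD34 and low CD16/32 and gave 1 library of 6880 cells. GMP (granulocyte-monocyte progenitors) were c-Kit+Sca-1- cells with CD34 and high CD16/32 and gave 3 libraries, which the series calls biological replicates, of 8429, 9016 and 7334 cells. The animals behind each library are not named, so p-values between gates measure only the spread between these libraries. Those between the GMP cell classes below measure only how class differences vary from library to library. The lineage antibodies include Gr-1 and CD11b, markers of mature granulocytes and monocytes.

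In the leukotriene branch, 5-lipoxygenase (Alox5) oxidises arachidonic acid with the help of the membrane protein FLAP (Alox5ap), and the product, leukotriene A4, has 2 main fates. Leukotriene A4 hydrolase (Lta4h) turns it into leukotriene B4, a neutrophil attractant read by the receptor BLT1 (Ltb4r1), whereas leukotriene C4 synthase (Ltc4s) joins it to glutathione and starts the cysteinyl leukotrienes that mast cells, basophils and eosinophils are known for. In the prostaglandin branch, the cyclooxygenases COX-1 (Ptgs1) and COX-2 (Ptgs2) make prostaglandin H2, which the hematopoietic prostaglandin D synthase (Hpgds) converts to prostaglandin D2, a known product of mast cells. Ptgs1 is also known as the enzyme behind platelet thromboxane, and Ptgs2 as an inducible gene.

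The 8 genes lie on 7 chromosomes of GRCm38 in the GENCODE M21 annotation, and all are protein coding. Alox5 lies at chr6:116410077-116461178 on the minus strand and Hpgds at chr6:65117293-65144908 on the minus strand. Alox5ap lies at chr5:149264767-149288153 (plus), Lta4h at chr10:93453411-93484875 (plus), Ltc4s at chr11:50236461-50238616 (minus) and Ltb4r1 at chr14:55765962-55768494 (plus). Ptgs1 lies at chr2:36230426-36252272 (plus) and Ptgs2 at chr1:150100031-150108227 (plus). Genes annotated on the opposite strand overlap Alox5ap (Gm19719 and n-R5s180), Ltc4s (Gm26542), Hpgds (the pseudogene Gm17147) and Ptgs1 (Gm43621). Whether the counting used strand is not given in the sources used here, and whether reads of these partners entered the counts was not tested.

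Promoter sequences of RefSeq (GRCm38.p6) matched 7 of the 8 genes. The 250 bases before the RefSeq start are shown for 4 genes whose levels differ between cell classes below and whose window lies outside the annotated gene, each 5' to 3' on the gene's strand. Capitals mark matches to 4 short motifs, chosen after the sequences had been seen and searched on both strands: GATA (spelled AGATAA in its first form, TGATAA in the next, then AGATAG and as the last form TGATAG), ETS (GAGGAAG and its other form AGGAAGT, which can overlap each other), C/EBP (TTGCGCAA) and the GC box (GGGCGG).
Alox5, chr6:116461179-116461428, minus strand: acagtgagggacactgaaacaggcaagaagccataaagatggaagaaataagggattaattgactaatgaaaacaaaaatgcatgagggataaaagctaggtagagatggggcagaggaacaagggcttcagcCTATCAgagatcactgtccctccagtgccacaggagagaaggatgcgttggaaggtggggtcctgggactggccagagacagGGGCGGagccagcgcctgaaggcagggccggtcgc
Lta4h, chr10:93453146-93453395, plus strand: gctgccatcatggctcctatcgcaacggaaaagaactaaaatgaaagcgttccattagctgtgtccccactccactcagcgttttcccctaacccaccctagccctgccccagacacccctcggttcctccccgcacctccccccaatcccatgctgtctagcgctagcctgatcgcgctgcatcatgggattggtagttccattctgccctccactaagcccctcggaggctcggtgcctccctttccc
Ltb4r1, chr14:55765712-55765961, plus strand: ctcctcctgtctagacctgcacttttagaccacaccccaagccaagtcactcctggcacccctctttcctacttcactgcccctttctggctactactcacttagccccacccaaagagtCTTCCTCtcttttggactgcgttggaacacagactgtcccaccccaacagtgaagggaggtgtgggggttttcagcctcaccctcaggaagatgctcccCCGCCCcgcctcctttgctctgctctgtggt
Ptgs1, chr2:36230176-36230425, plus strand: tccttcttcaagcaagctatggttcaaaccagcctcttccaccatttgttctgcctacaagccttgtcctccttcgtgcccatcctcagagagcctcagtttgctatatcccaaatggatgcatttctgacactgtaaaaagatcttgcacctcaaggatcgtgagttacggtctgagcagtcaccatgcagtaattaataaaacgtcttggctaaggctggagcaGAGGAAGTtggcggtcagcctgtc
For Hpgds and Ltc4s the RefSeq window runs 178 and 84 bases into the GENCODE gene, so 30 bases around the match are shown.
Hpgds, chr6:65144762-65144791, minus strand: ggcttttaggtgGAGGAAGTggcctctggc
Ltc4s, chr11:50238632-50238661, minus strand: ggaacaactggaAGGAAGTggtcaagctgt

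Positions are counted from the RefSeq start, with -1 the base before it. The Alox5 window held a GATA match at -117 to -112 and a GC box at -35 to -30. Ptgs1 and Hpgds each held an overlapping pair of ETS matches, at -24 to -17 and at -49 to -42. Ltc4s held 1 ETS match at -117 to -111, and Ltb4r1 held 1 ETS match and 1 GC box. The Ptgs2 window held the palindromic C/EBP motif at -69 to -62 and a GC box. No listed motif was in the Lta4h window. Of 32851 RefSeq promoters of this length, 26.5% held the GATA, 15.4% the ETS and 32.7% the GC box letters, and 0.164% held the C/EBP letters. A match describes letters only.

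The 5 libraries held 7389 to 9993 deposited barcodes and 90067195 to 137141095 UMIs, and the kept cells had median depths of 9434 to 15187 UMIs. Pairs of libraries shared 12 to 26 barcodes. The GMP libraries carried far more neutrophil-granule transcripts (9 summed markers, 24183 to 27037 CPM, which are UMIs per 1000000 UMIs of the library or class) than CMP (1857) or LMPP (3369). LMPP had the highest stem markers (5 genes, 913 against 214 in CMP and 16.7 to 22.7 in GMP). Among the 9 neutrophil markers, Camp, Ngp and S100a8, which rise in maturing neutrophils, were highest in LMPP, at 264, 246 and 793 CPM. CMP had 7.26, 7.37 and 9.20 of them, and GMP 0.192 to 2.56, 0.392 to 2.82 and 119 to 142. Gfi1 also stood highest in LMPP, whereas Elane, Prtn3, Ctsg, Cebpe and Fcnb stood highest in GMP. Fcnb had 14.8 to 21.8 in GMP against 14.3 in LMPP. The part of cells with Camp, Ngp and S100a8 in the LMPP values below was not tested. GMP also held small numbers of cells with mast cell, basophil or eosinophil genes, described below.

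Levels in CPM are compared between samples for 1 gene at a time, since 3' counts of different genes depend on how well each is captured. Fewer cells with a transcript and less transcript per cell cannot be told apart in a library's sum, so the share of cells with a UMI is given after thinning cells to 3000 UMIs and leaving out shallower ones (131 LMPP cells, 121 CMP cells and 164 to 450 cells of each GMP library). Differences come from edgeR's quasi-likelihood test across 19778 genes with TMM scaling and Benjamini-Hochberg adjusted p-values (called edgeR adjusted p below), past the threshold at 0.05. The fit takes its spread from the 3 GMP libraries and assumes that of the single CMP and LMPP libraries to be alike. With TMM, a log2 difference is relative to the typical gene: scaling by total UMIs instead moved the median of all genes from -0.04 to -0.34 against CMP and from -0.10 to -0.70 against LMPP.

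Against CMP, GMP had more of the leukotriene A4 hydrolase and BLT1 transcripts and less of leukotriene C4 synthase. Alox5, Alox5ap, Lta4h, Ltb4r1 and Ptgs1 were higher, Ltc4s was lower, and Hpgds and Ptgs2 did not pass, which makes 6 of 8 past the threshold where 32.9% of all genes were (13.8% higher and 19.1% lower). Against LMPP, Alox5, Alox5ap, Lta4h and Ltb4r1 were higher, Ltc4s, Hpgds and Ptgs2 lower, and Ptgs1 did not pass, 7 of 8 where 57.6% of all genes passed (26% higher and 31.6% lower). The median log2 difference of the 8 genes was 0.76 against CMP and 0.19 against LMPP, beside -0.04 and -0.10 over all tested genes. Both comparisons use the same GMP libraries, and the 8 genes were chosen with earlier results of these data known. With total-UMI scaling the split of all called genes moved from 2722 higher and 3784 lower to 1449 and 6015 against CMP, and from 5148 and 6247 to 2170 and 10276 against LMPP.

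**Figure D1:**
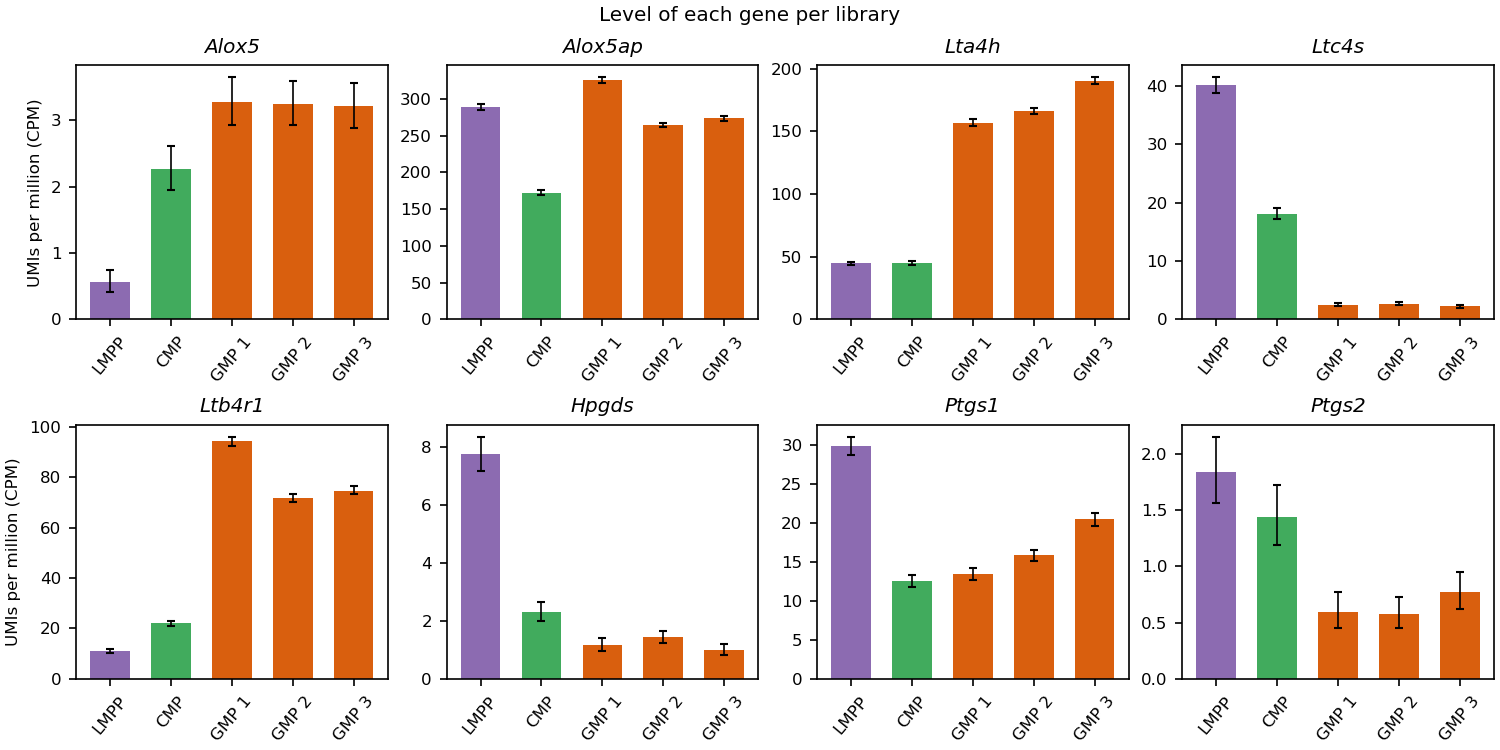
Level of each of the 8 genes in CPM (y axis, its own scale for each gene, from 0) in the LMPP, CMP and 3 GMP libraries (x axis); error bars are 95% exact Poisson intervals, which cover counting error only. Lta4h and Ltb4r1 stand highest in all 3 GMP libraries (157 to 190 and 71.8 to 94.3), and Ltc4s, Hpgds and Ptgs2 stand highest in LMPP (40.1, 7.75 and 1.84).

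Alox5, the first enzyme of the leukotriene branch, was scarce in the sums of whole libraries. It had 0.563 CPM in LMPP (48 UMIs), 2.27 in CMP (185 UMIs) and 3.27, 3.25 and 3.21 in the GMP libraries (324, 390 and 368 UMIs). All 3 GMP libraries were above CMP and LMPP. The log2 difference was 3.09 ± 0.27 (SE) against LMPP (edgeR adjusted p = 6.5e-05) and 0.82 ± 0.22 against CMP (edgeR adjusted p = 0.0242). The latter did not pass with total-UMI scaling (0.51, edgeR adjusted p = 0.113) or without GMP replicate 2 (edgeR adjusted p = 0.0697). After thinning, 1.27% ± 0.13 (SD, n = 3) of GMP cells had an Alox5 UMI, beside 0.607% of CMP and 0.244% of LMPP cells.

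Its helper Alox5ap was abundant in every gate. It had 289 CPM in LMPP, 173 in CMP and 326, 265 and 273 in GMP, so CMP was lowest and LMPP lay within the GMP range. Against CMP the log2 difference was 1.05 ± 0.18 (edgeR adjusted p = 0.00361). Against LMPP it was 0.62 ± 0.18 (edgeR adjusted p = 0.0182), but with total-UMI scaling it was -0.0053 (edgeR adjusted p = 0.977), so that call rests on the scaling. Thinned cells with a UMI made up 59.3% of LMPP, 40.0% of CMP and 57.2% ± 4.24 (SD, n = 3) of GMP.

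Lta4h, which makes leukotriene B4, was about 3.8 times as high in GMP as in either other gate. It had 44.7 CPM in LMPP, 45.0 in CMP and 157, 166 and 190 in GMP, with no overlap between GMP and the rest. The log2 difference was 2.23 ± 0.16 against CMP (edgeR adjusted p = 5.0e-05) and 2.55 ± 0.16 against LMPP (edgeR adjusted p = 1.4e-05). Of thinned GMP cells 36.9% ± 3.53 (SD, n = 3) had a UMI, beside 11.5% of CMP cells and 10.3% of LMPP cells.

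The receptor gene Ltb4r1 was lowest in LMPP and highest in GMP. It had 11.1 CPM in LMPP, 22.0 in CMP and 94.3, 71.8 and 74.8 in GMP. The log2 difference of GMP was 2.18 ± 0.22 against CMP (edgeR adjusted p = 0.00027) and 3.48 ± 0.24 against LMPP (edgeR adjusted p = 2.3e-05). A UMI was found in 20.3% ± 2.04 (SD, n = 3) of thinned GMP cells, 6.85% of CMP cells and 2.26% of LMPP cells.

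Ltc4s, the entry to cysteinyl leukotrienes, ran in the opposite order. It had 40.1 CPM in LMPP (3414 UMIs), 18.1 in CMP (1477 UMIs) and 2.54, 2.72 and 2.24 in GMP (251, 327 and 257 UMIs). GMP was 7.24 times lower than CMP and 16.0 times lower than LMPP in mean CPM. The log2 difference was -2.54 ± 0.15 against CMP (edgeR adjusted p = 2.9e-05) and -3.37 ± 0.15 against LMPP (edgeR adjusted p = 4.1e-06). Of thinned cells, 12.2% of LMPP, 6.26% of CMP and 0.790% ± 0.069 (SD, n = 3) of GMP had a UMI.

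In the prostaglandin branch, Ptgs1 was highest in LMPP. It had 29.9 CPM there, 12.6 in CMP and 13.4, 15.8 and 20.4 in GMP, so all GMP libraries lay between CMP and LMPP. The log2 difference against CMP was 0.70 ± 0.21 (edgeR adjusted p = 0.0364) and did not pass with total-UMI scaling (0.40, edgeR adjusted p = 0.222). Against LMPP it was -0.23 ± 0.20 (edgeR adjusted p = 0.339), and -0.85 with total-UMI scaling (edgeR adjusted p = 0.0109).

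Hpgds was highest in LMPP too, with 7.75 CPM (660 UMIs), 2.29 in CMP (187 UMIs) and 1.16, 1.43 and 0.995 in GMP (115, 172 and 114 UMIs). All 3 GMP libraries were below CMP and LMPP. The log2 difference was -2.05 ± 0.24 against LMPP (edgeR adjusted p = 0.000254). Against CMP it was -0.62 ± 0.26 (edgeR adjusted p = 0.11) and passed with total-UMI scaling (-0.93, edgeR adjusted p = 0.0263).

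Ptgs2 was close to the detection limit in all libraries. It had 1.84 CPM in LMPP (157 UMIs), 1.43 in CMP (117 UMIs) and 0.596, 0.575 and 0.768 in GMP (59, 69 and 88 UMIs), again with GMP below both. The log2 difference was -0.87 ± 0.28 against LMPP (edgeR adjusted p = 0.0285), a call lost with DESeq2's Wald test (adjusted p = 0.134) and without GMP replicate 2 (edgeR adjusted p = 0.108). Against CMP it was -0.82 ± 0.29 (edgeR adjusted p = 0.0598), and it passed with total-UMI scaling (-1.13, edgeR adjusted p = 0.0193).

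**Figure D2:**
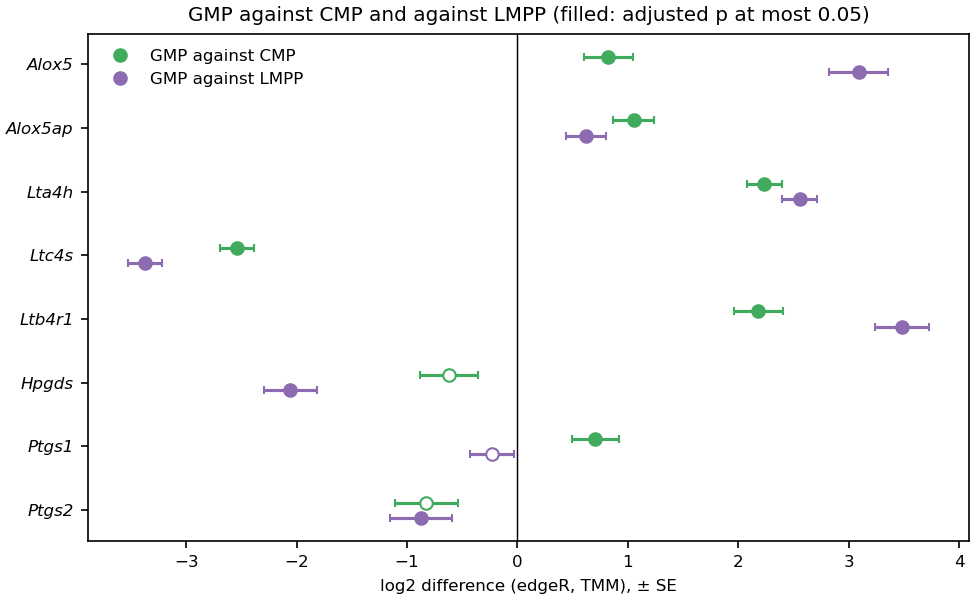
Log2 difference of GMP (3 libraries) against CMP (green) and LMPP (violet) for the 8 genes, with standard errors from edgeR (x axis); filled points have an adjusted p of at most 0.05. Lta4h (2.23 and 2.55) and Ltb4r1 (2.18 and 3.48) lie to the right in both comparisons and Ltc4s (-2.54 and -3.37) to the left.

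CMP and LMPP have 1 library each, so their ratio has no replicate check and its interval covers counting error only. The CMP-to-LMPP ratio was 4.03 for Alox5 (95% exact interval 2.92 to 5.65) and 1.99 for Ltb4r1 (1.84 to 2.15). It was 1.01 for Lta4h (0.961 to 1.05). It was below 1 for the other 5 genes, at 0.597 for Alox5ap, 0.452 for Ltc4s, 0.420 for Ptgs1, 0.296 for Hpgds (0.250 to 0.349) and 0.779 for Ptgs2 (0.608 to 0.996).

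To see which GMP lineages carry each gene, GMP cells were split by 5 marker genes that are not among the 8. Elane encodes neutrophil elastase and Irf8 a transcription factor of monocytes and dendritic cells. Cma1 encodes the mast cell chymase, Prss34 a basophil serine protease and Prg2 the eosinophil major basic protein. Thresholds were set per 10000 UMIs of a cell, at 10 for Prg2 and Prss34, 5 for Cma1, 50 for Elane and 3 for Irf8. Over the 3 libraries this gave 13607 Elane cells (54.9% on average), 1236 Irf8 cells (5.02%), 266 Cma1 cells (1.07%), 123 Prss34 cells (0.487%) and 351 Prg2 cells (1.41%). A further 4923 cells were past both the Elane and Irf8 thresholds, 4257 past none of the 5 and 16 past several of the rare ones. These classes are ranges of marker levels, not clusters: within a factor of 1.5 of the threshold lay 2017 cells below and 2778 above for Elane, and 2325 and 2536 for Irf8, but only 36 and 23 for Cma1, 28 and 12 for Prss34, and 44 and 20 for Prg2.

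Other markers followed the class genes. The Cma1 class had the mast cell proteases Cpa3 (4950 CPM), Gzmb (1973), Tpsb2 (122) and Mcpt4 (30.4), but Mrgprb1, a receptor of mature connective-tissue mast cells, was at 0 and the basophil gene Mcpt8 reached 1722. The Prss34 class had Mcpt8 at 11144 and the IgE receptor genes Ms4a2 at 678 and Fcer1a at 461. The Prg2 class had the eosinophil genes Epx (1002), Prg3 (1064) and Ear6 (643), while Ccr3 was at 0. The Irf8 class had F13a1 (368) and Ms4a6c (484) of monocytes and also Cd74 (137) and H2-Aa (68.4) of antigen-presenting cells. Summed neutrophil markers were 31227 CPM in the Elane class and still 9656 to 12062 in the 4 others, and their part in the values below was not tested. Depth differed as well, with median UMIs of 13523 and 14053 in the Elane and Irf8 classes, 8230 in Prss34, 3173 in Cma1 and 3643 in Prg2.

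Sums per library and class were tested with the library as a block across 7154 genes, which kept 6 of the 8 genes and left out Ltc4s and Ptgs2 as too low. Hpgds passed this filter only through its level in the Cma1 class, and Alox5 only through the Cma1 and Prss34 classes. Ptgs1 passed it only through the Elane and Prg2 classes. The calls and p-values of these genes for those classes are therefore not independent of the filter, which applied to all genes alike. The same holds for the counts that include them. Each class was set against the mean of the other 4. The Elane class had 4 of the 6 higher and 1 lower, where 62.2% of all genes passed (31.4% higher and 30.8% lower). The Irf8 class had 0 higher and 5 lower, where 44.7% passed (22.7% and 22%). The Cma1 class had 3 higher and 2 lower, where 43.4% passed (22.2% and 21.1%). The Prss34 class had 3 higher and 1 lower, where 14.3% passed (10.5% and 3.84%), and the Prg2 class 2 higher and 2 lower, where 36.3% passed (18.9% and 17.4%). Together that is 23 of 30, beside 40.2% over all genes. Over the 10 pairs of classes, 36 of 60 differences passed, where 39.6% of all genes' differences did.

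**Figure D3:**
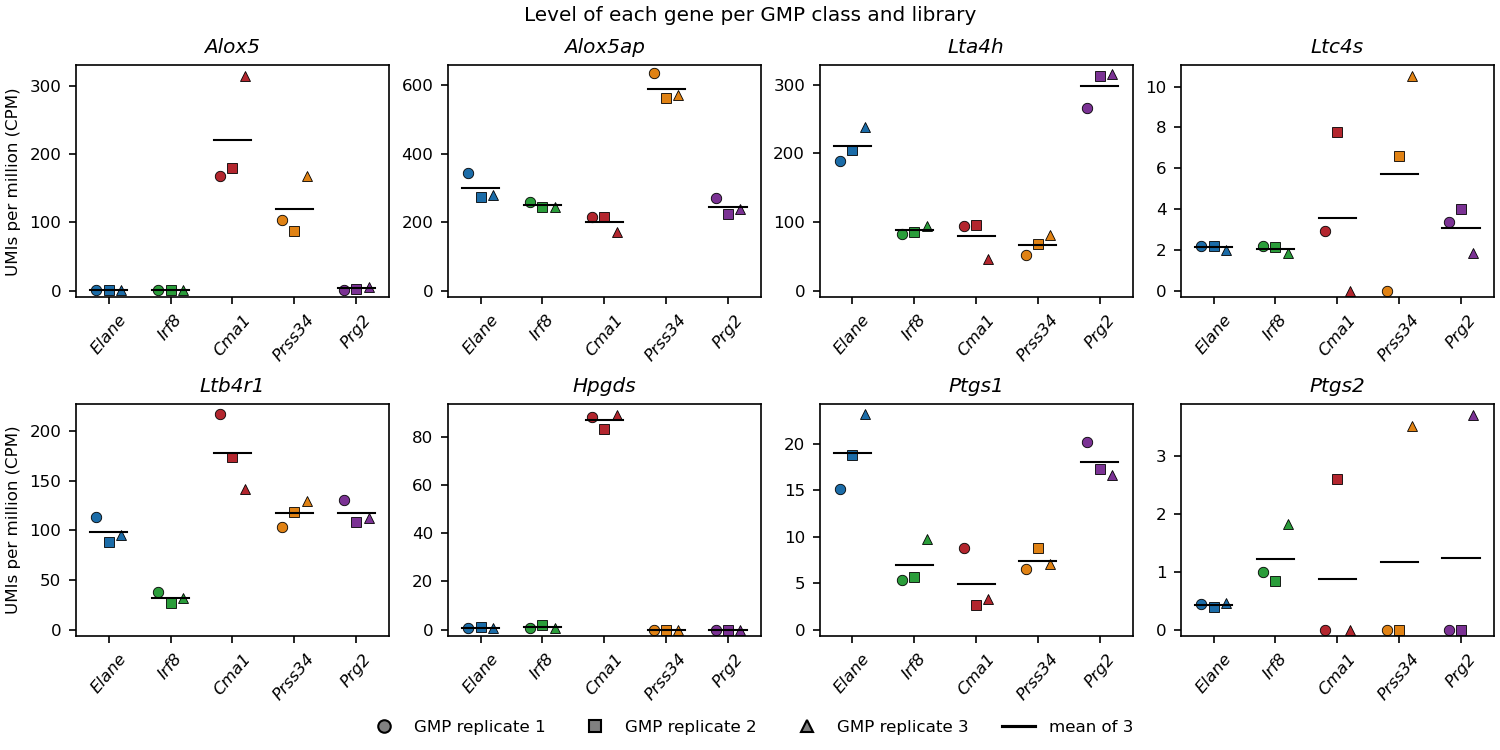
Level in CPM (y axis, own scale for each gene) of the 8 genes in the 5 GMP classes (x axis); each symbol is 1 GMP library and the line is the mean of 3. Alox5 is high in the Cma1 and Prss34 classes (means 220 and 120), Hpgds in the Cma1 class (86.9), Alox5ap in the Prss34 class (590) and Lta4h in the Prg2 and Elane classes (297 and 211).

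Alox5 belonged to the Cma1 and Prss34 classes. It had 168, 179 and 314 CPM in the Cma1 class of GMP replicates 1, 2 and 3, and 104, 87.7 and 168 in the Prss34 class. The other 3 classes stayed at 0.881 to 5.55 in every library, with no overlap. Against the mean of the other classes, the log2 difference was 5.31 ± 0.19 for Cma1 (edgeR adjusted p = 3.2e-35) and 4.47 ± 0.24 for Prss34 (edgeR adjusted p = 2.3e-25). Since Alox5 passed the filter only through these classes, its p-values for them are not independent of the filter. The Cma1 class was higher than the Prss34 class by 0.67 ± 0.19 (edgeR adjusted p = 0.00525), and this last call did not pass without GMP replicate 2 (edgeR adjusted p = 0.106) or 3 (edgeR adjusted p = 0.0506). Among cells of 2000 to 6000 UMIs, Elane against Cma1 cells gave -4.85 (edgeR adjusted p = 2.1e-18), beside -7.46 over all cells (edgeR adjusted p = 9.8e-43). In that range Cma1 cells still had fewer UMIs per cell than Elane cells in each GMP library. Among cells of at least 3000 UMIs, thinned to that depth, 41.3% of Cma1 and 36.7% of Prss34 cells had an Alox5 UMI, beside 0.269% of Elane cells. The depth limit left out 130 of 266 Cma1, 3 of 123 Prss34 and 121 of 13607 Elane cells. Over all cells the shares were 48.6%, 59.0% and 1.29%. The part of free RNA in the shares of any class was not tested.

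Detection together with Alox5ap, the partner 5-lipoxygenase needs, differed between both classes. Of the 123 Prss34 cells, 67 (54.5%) had a UMI of both genes. Of the 266 Cma1 cells, 48 (18.0%) did, at less than the depth of the Prss34 cells. In the Elane, Irf8 and Prg2 classes the share was 1.26%, 1.78% and 1.71%.

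The Prss34 class led for Alox5ap itself. It had 636, 564 and 572 CPM there, against 275 to 344 in the Elane class, 244 to 260 in the Irf8 class, 224 to 272 in the Prg2 class and 172 to 216 in the Cma1 class. The Prss34 class was higher by 1.43 ± 0.09 on the log2 scale (edgeR adjusted p = 3.2e-21), and the Cma1 class was lower by 0.78 (log2 difference -0.78 ± 0.12, edgeR adjusted p = 6.3e-08). The Elane class was higher than the mean by 0.23 ± 0.07 (edgeR adjusted p = 0.00168), which did not pass with total-UMI scaling (0.02, edgeR adjusted p = 0.74). The Irf8 class was at -0.33 ± 0.07 (edgeR adjusted p = 0.000102). In cells of 2000 to 6000 UMIs it was at 0.24 (edgeR adjusted p = 0.415). There the Prss34 class, the highest for Alox5ap, was too small to enter the mean, so the contrast differs.

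Lta4h was highest in the Prg2 class and next in the Elane class. It had 265, 312 and 315 CPM in Prg2 cells and 188, 205 and 238 in Elane cells. The Irf8, Cma1 and Prss34 classes had 82.2 to 94.8, 46.3 to 96.2 and 51.9 to 80.7, all below both. The log2 difference from the mean of the others was 1.36 ± 0.10 for Prg2 (edgeR adjusted p = 2.0e-18) and 1.14 ± 0.07 for Elane (edgeR adjusted p = 3.9e-24). Elane against Prg2 gave -0.17 ± 0.08 (edgeR adjusted p = 0.0622), and -0.63 in cells of 2000 to 6000 UMIs (edgeR adjusted p = 0.00626) and -0.52 with total-UMI scaling (edgeR adjusted p = 4.3e-07). Among thinned cells a UMI was in 62.1% of Prg2, 44.6% of Elane and 21.5% of Irf8 cells, with 147 of 351 Prg2, 121 of 13607 Elane and 32 of 1236 Irf8 cells left out as too shallow.

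Ltb4r1 was lowest in the Irf8 class. It had 38.2, 27.1 and 31.3 CPM there, against 87.8 to 113 in the Elane class, 104 to 130 in Prss34, 109 to 131 in Prg2 and 142 to 218 in Cma1. The log2 difference from the mean of the others was -2.00 ± 0.09 for Irf8 (edgeR adjusted p = 3.5e-30), and -0.94 in cells of 2000 to 6000 UMIs, where the Prss34 class was too small to enter the mean (edgeR adjusted p = 0.00823). It was 1.03 ± 0.13 for Cma1 (edgeR adjusted p = 1.3e-09). The Elane (0.26 ± 0.06) and Prss34 (0.56 ± 0.15) differences also passed (edgeR adjusted p = 0.000228 and 0.00581), but neither did with total-UMI scaling (edgeR adjusted p = 0.541 and 0.0683). The Prss34 call was also lost without GMP replicate 2 (0.47, edgeR adjusted p = 0.152) or 3 (0.48, edgeR adjusted p = 0.0663). In order of mean level the classes stood Irf8, Elane, Prss34, Prg2, Cma1, and the pairs Elane with Prg2, Elane with Prss34, Prss34 with Prg2, and Prss34 with Cma1 did not differ past the threshold (edgeR adjusted p = 0.53, 0.243, 0.172 and 0.113).

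Hpgds was a gene of the Cma1 class among the 5. It had 88.3, 83.2 and 89.3 CPM there and 0.591 to 1.83 in the Elane and Irf8 classes. No UMI was found in the 1049338 UMIs of the Prss34 class or the 1888754 UMIs of the Prg2 class. With a floor of 3 counts over the 3 libraries, the Cma1 class was at least 30.3-fold higher than Prss34 and at least 54.6-fold higher than Prg2. Elane against Cma1 gave a log2 difference of -6.37 ± 0.31 (edgeR adjusted p = 2.4e-27), and -4.00 in cells of 2000 to 6000 UMIs. Since Hpgds passed the filter only through the Cma1 class, this p-value is not independent of the filter. Of the 266 Cma1 cells, 37 (13.9%) had a UMI of both Hpgds and Alox5.

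Ptgs1 was highest in the Elane and Prg2 classes. It passed the filter only through these classes, so its p-values for them are not independent of the filter. Elane cells had 15.1, 18.8 and 23.3 CPM, and Prg2 cells 20.2, 17.3 and 16.7, a difference that did not pass (0.40 ± 0.24, edgeR adjusted p = 0.162). The Irf8 class had 5.32, 5.65 and 9.74, the Prss34 class 6.49 to 8.77 and the Cma1 class 2.60 to 8.83, the last from 5 UMIs in all. The Elane class was higher than the mean of the others by 1.37 ± 0.17 (edgeR adjusted p = 3.2e-10) and higher than Irf8 by 1.61 ± 0.12 (edgeR adjusted p = 9.7e-19). The Prg2 class was at 0.88 ± 0.33 (edgeR adjusted p = 0.031), a call lost without any 1 of the 3 GMP libraries (edgeR adjusted p = 0.119, 0.152 and 0.0512) and with doublet calls kept (0.50, edgeR adjusted p = 0.22). The Irf8 class was at -0.65 ± 0.27 (edgeR adjusted p = 0.0486), lost without GMP replicate 1 (-0.35, edgeR adjusted p = 0.483) or 2 (-0.57, edgeR adjusted p = 0.213), and at 0.77 when the class thresholds were set 2 times as high (edgeR adjusted p = 0.0493).

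Ltc4s and Ptgs2 showed no class of their own. Ltc4s had 1.83 to 2.21 CPM in the Elane and Irf8 classes, and 4, 6 and 6 UMIs in all in the Cma1, Prss34 and Prg2 classes (means 3.58, 5.70 and 3.06). Cells past none of the 5 thresholds had 6.71 ± 0.27 (SD, n = 3). Ptgs2 had 0.425 CPM in the Elane class, 1.21 in the Irf8 class and 1, 1 and 2 UMIs in the 3 rare classes. At these counts no difference between the rare classes was detectable for either gene.

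**Figure D4:**
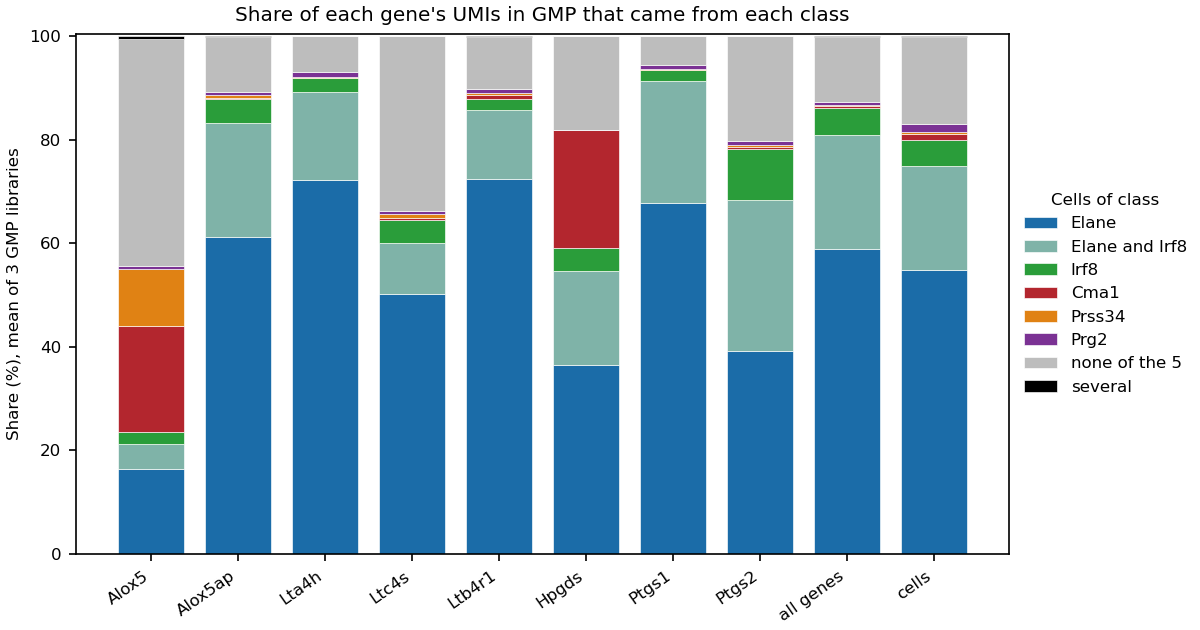
Share (y axis, %, mean of 3 GMP libraries) of each gene's UMIs that came from cells of each class, beside the same share for all genes' UMIs and for cells (x axis). The Cma1 class holds 0.309% of all UMIs but 20.4% of Alox5 and 22.8% of Hpgds UMIs, and cells past none of the 5 thresholds hold 43.9% of Alox5 UMIs.

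Rare cells carried much of the Alox5 counted in GMP. The Cma1 class gave 20.4% ± 4.72 (SD, n = 3) of Alox5 UMIs and the Prss34 class 11.1% ± 1.73, from 0.309% and 0.313% of all UMIs. The Elane class, with 58.9% of all UMIs, gave 16.4% of Alox5, 36.5% of Hpgds and 50.2% of Ltc4s UMIs. It gave 72.3% of Lta4h, 72.4% of Ltb4r1, 67.7% of Ptgs1 and 61.1% of Alox5ap UMIs.

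Cells past none of the thresholds held 43.9% ± 8.25 (SD, n = 3) of Alox5 UMIs. A split of these cells by Cpa3, a carboxypeptidase of mast cells and basophils, at 5 per 10000 UMIs was chosen after seeing their values and is a description. The 1126 cells with Cpa3 had 44.1 ± 7.54 CPM of Alox5 (SD, n = 3) and held 34.5% of all GMP Alox5 UMIs in 2.61% of the UMIs. They also had the basophil gene Mcpt8 (790), Gata2 (228), Ms4a2 (245) and Gzmb (349). The 3131 cells without Cpa3 had 3.04 ± 0.29 CPM of Alox5. Hpgds was 4.95 in the former and 0.891 in the latter, and Ltb4r1 was 120 and 49.0.

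Cells of the Cma1, Prss34 and Prg2 classes were very few outside GMP, and the Cpa3 cells past no threshold were not counted there. In CMP, cells past none of the 5 thresholds held 88.6% of Alox5 UMIs in 82.7% of all UMIs, and Cma1 cells held 7.03%. In LMPP these Alox5 shares were 64.6%, in 93.3% of all UMIs, and 12.5%. Elane cells of LMPP also held 12.5% of its 48 Alox5 UMIs, and Prss34 cells 10.4%. CMP held 5 Cma1 cells with 13 Alox5 and 4 Hpgds UMIs, and LMPP held 4 with 6 Alox5 and 1 Hpgds UMI. LMPP also held 5 Prss34 cells with 5 Alox5 and 54 Alox5ap UMIs. The 194 Elane cells of LMPP had 207 CPM of Lta4h and 85.3 of Ltb4r1, beside 36.9 and 7.41 in the 7201 LMPP cells past no threshold. Those levels lie within the Lta4h range of GMP Elane cells (188 to 238) and just below the Ltb4r1 range (87.8 to 113).

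In CMP and LMPP a further description used Pf4 (platelet factor 4, megakaryocyte lineage), Car1 (erythroid), Dntt (lymphoid), Mpo (myeloid) and Hlf (stem-like) as markers. These classes may overlap, and 535 CMP and 401 LMPP cells were past several of the thresholds. Ptgs1 was highest in the Pf4 cells. It had 73.9 CPM in the 271 Pf4 cells of CMP (95% exact interval 66.0 to 82.5) against 9.14 in the other CMP cells, and 94.1 in the 59 Pf4 cells of LMPP (73.8 to 118) against 29.3. In GMP it had 44.5 against 13.3, 83.5 against 15.6 and 52.3 against 20.4 in replicates 1, 2 and 3, the last from 4 cells and 3 UMIs. Pf4 cells were higher in 5 of 5 libraries, and their counting intervals excluded the level of the other cells in 4.

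**Figure D5:**
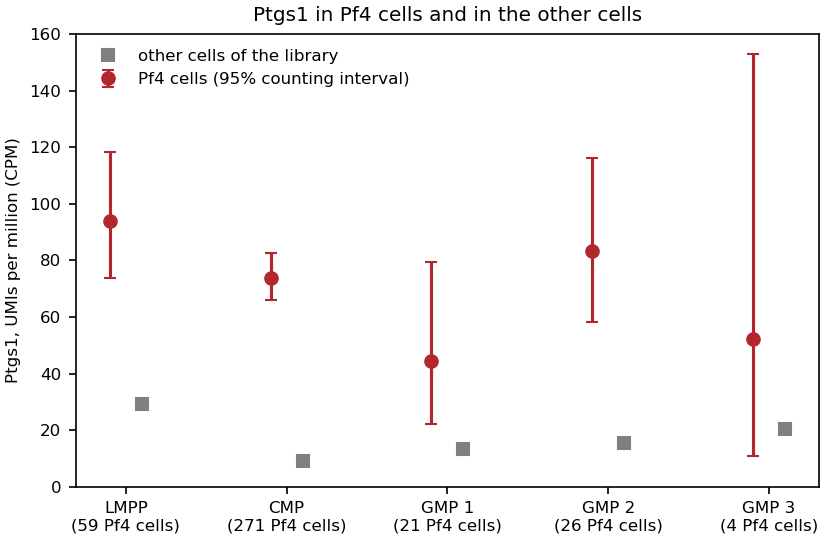
Ptgs1 level in CPM (y axis, from 0) in Pf4 cells (red, 95% exact Poisson interval) and in the other cells (grey) of each library (x axis, with the number of Pf4 cells). Pf4 cells lie above the rest in each library, at 94.1 against 29.3 in LMPP and 73.9 against 9.14 in CMP, and the interval of GMP replicate 3 includes its other cells.

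CMP Pf4 cells also had more Alox5, at 8.14 CPM (35 UMIs) against 1.94 in the other CMP cells. Pf4 cells of LMPP and of GMP replicates 1, 2 and 3 were higher too, but held only 1, 2, 2 and 1 Alox5 UMIs. Their counting intervals included the level of the other cells. In the Hlf cells Ltc4s was 45.3 CPM in LMPP (5302 cells) and 30.2 in CMP (871 cells, 95% exact interval 26.6 to 34.1), against 9.36 in LMPP Mpo cells and 13.6 in CMP Mpo cells. Hpgds in Hlf cells was 9.19 in LMPP and 5.27 in CMP, against 1.73 and 1.94 in Mpo cells. Lta4h had the opposite order in LMPP, at 34.4 in Hlf and 151 in Mpo cells. Alox5ap was lowest in the Car1 cells of both gates, at 40.3 in LMPP and 35.1 in CMP.

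Of the other 50 pathway genes in the files, 42 could be tested between gates. Against CMP 11 were higher, 12 lower and 19 did not pass, where 32.9% of all genes passed (13.8% higher and 19.1% lower). Against LMPP 15 were higher, 13 lower and 14 did not pass, where 57.6% of all genes passed (26% higher and 31.6% lower). The median log2 difference was 0.24 against CMP and 0.20 against LMPP. Mgst2, another enzyme that can join glutathione to leukotriene A4, was higher in GMP, unlike Ltc4s. It had 6.30 CPM in CMP, 14.9 in LMPP and 45.9 ± 3.13 in GMP (SD, n = 3), a log2 difference of 3.17 ± 0.16 against CMP (edgeR adjusted p = 1.4e-05). The related Mgst1 had 11.7, 24.1 and 48.2 ± 10.1 (2.35 ± 0.23, edgeR adjusted p = 0.000221). Ptgr1, a reductase that breaks down leukotriene B4 and prostaglandins, had 17.2 CPM in CMP, 11.9 in LMPP and 61.6 ± 4.18 in GMP (2.15 ± 0.15 against CMP, edgeR adjusted p = 4.6e-05).

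Upstream, the arachidonic-acid-releasing phospholipase Pla2g4a was lower in GMP, at 16.6 ± 1.10 CPM (SD, n = 3) against 30.8 in CMP (log2 difference -0.58 ± 0.13, edgeR adjusted p = 0.0125) and 43.0 in LMPP. Thromboxane synthase (Tbxas1) had 8.43 ± 0.27 in GMP, 25.6 in CMP and 47.4 in LMPP (-1.29 ± 0.13 against CMP, edgeR adjusted p = 0.000276). The thromboxane receptor gene Tbxa2r had 0.175 ± 0.098 in GMP, 19.1 in CMP and 24.6 in LMPP (-6.36 ± 0.33 against LMPP, edgeR adjusted p = 6.0e-06). Fam213b, a prostamide and prostaglandin F synthase gene, was higher, with 22.7 ± 2.10 in GMP and 8.35 in CMP (1.75 ± 0.19, edgeR adjusted p = 0.000331). Ptges3, a prostaglandin E synthase gene, had 270 ± 58.7 in GMP, 262 in CMP and 300 in LMPP and did not pass against CMP (0.35 ± 0.21, edgeR adjusted p = 0.249).

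Of these 50 genes, 17 could be tested between the GMP classes. Higher and lower against the mean of the other classes were 8 and 3 for Elane, 5 and 4 for Irf8, 3 and 4 for Cma1, 0 and 1 for Prss34, and 2 and 4 for Prg2. Over all genes 62.2%, 44.7%, 43.4%, 14.3% and 36.3% passed in these classes, in the same order. Tbxas1 had 36.3 ± 11.9 CPM in the Prg2 class (SD, n = 3) and 6.85 to 14.9 in the other 4 on average (log2 difference 1.73 ± 0.25, edgeR adjusted p = 5.6e-08). It passed the filter only because of its level in the Prg2 class. This p-value, and the count that holds the call, are therefore not independent of the filter. Cotl1, which encodes an actin-binding partner of 5-lipoxygenase, had 240 ± 46.1 in the Cma1 class and 53.3 in the Elane class (1.45 ± 0.12 against the mean, edgeR adjusted p = 4.3e-16). Mgst2 had 52.5 ± 3.80 in the Elane class and 8.45 to 21.4 in the others (2.01 ± 0.12, edgeR adjusted p = 4.8e-23). Among lipoxygenase genes too low to test, and singled out after their values were seen, Alox15 had 13 UMIs (12.7 CPM) and Alox12e 18 UMIs (18.6 CPM) in the Prss34 class, and 0 UMIs of either were in the Cma1 and Irf8 classes.

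The genes whose levels ran most like each of the 6 were found by Pearson's r of log2(CPM + 1) over the 15 library-by-class sums, among 6621 genes. The sums of 1 library share its cells and the classes differ in depth, so r is a description. Closest to Alox5 were Bfsp2 (r = 0.989), the chemokine receptor gene Ccr1 (0.988) and Rcn3 (0.980). Closest to Hpgds were Tmem233 (0.983), the cytokine gene Il13 (0.978) and Rprm (0.977). Il13 had 42.1 CPM in the Cma1 class and at most 0.248 in the others. Closest to Lta4h were B4galt6 (0.967), the granulocyte transcription factor gene Cebpe (0.921) and Baz1a (0.907). Closest to Ltb4r1 were Cd63 (0.913), Cetn2 (0.884) and Tmbim6 (0.879). For Alox5ap they were Ndufa1 (0.949), Rpl39 (0.903) and Prss28 (0.902), and for Ptgs1 they were Tslp (0.881), Ndufb6 (0.852) and Pxylp1 (0.850).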

How the data were processed

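The deposited matrices hold UMI counts per gene and barcode. Per the submitters' processing notes the authors used the mm10 build, Cell Ranger 3.1.0 and Seurat 3.1.1, whereas the matrices' file headers name Cell Ranger 6.1.1. How barcodes were called as cells is not given in the sources used here. Cells with at least 500 genes and 1000 UMIs and at most 10% mitochondrial UMIs were kept. The barcodes with the highest Scrublet scores (scanpy 1.11.5) were removed as doublets, at 0.8% per 1000 barcodes. No cell annotation was used, and the classes follow fixed marker thresholds with at least 2 raw UMIs for every marker but Elane.

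UMIs were summed per library, or per GMP library and class, and tested with edgeR 4.0.16 (glmQLFit and glmQLFTest, TMM, filterByExpr, prior count 2, R 4.3.3). P-values were adjusted by Benjamini-Hochberg over all genes tested. The standard error is the log2 difference divided by the root of the F statistic. Class sums of 1 GMP library come from the same cells' suspension, so the class fit has the library as a block. Intervals are exact at 95% and cover counting error only, since the cells of a library are not replicates. The edgeR fits were tested on simulated counts with known changes.

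The 8 genes and the lists were chosen with earlier results of these data known. Every one of the 8 is named. Of the other pathway genes, the text names only those past a test whose higher group reached 20 CPM, or the 2 highest per role, apart from 2 lipoxygenase genes said to be singled out, and the 3 most alike genes had at least 20 CPM in the highest class. Alternatives were other scalings (DESeq2 1.42.0), other tests, filters, thresholds and left-out libraries.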

Additional observations from a re-analysis of the deposited data

How the results depend on the processing

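Of 160 alternative values for the 8 genes between gates, 148 kept direction and side of the threshold, 5 lost the call, 6 gained it and 1 reversed. For the classes against the mean the numbers were 320, 23, 4 and 3 of 350, and for pairs of classes 654, 21, 14 and 1 of 690. With total-UMI scaling, Alox5ap in GMP against LMPP went to -0.0053 and Ltb4r1 in Elane against Prg2 cells to -0.27 (edgeR adjusted p = 0.0305). With class thresholds 2 times as high, Ptgs1 in the Irf8 class went to 0.77. An alternative chosen after seeing the data used only cells of 2000 to 6000 UMIs, which leaves fewer cells, narrows but does not match depth, and drops the Prss34 class from the means. There Ltb4r1 in the Elane class went to -0.20 and Alox5ap in the Irf8 class to 0.24. Genes past the threshold became 1639 for Elane, 395 for Irf8, 1732 for Cma1 and 837 for Prg2, from 4452, 3197, 3103 and 2594. Calls among the 8 genes became 17 over pairs of classes and 11 against the mean. The 36 and 23 over all cells include comparisons of the Prss34 class, which this alternative lacks, so these counts are over unlike sets. Over all cells the Prss34 class alone gave 3 higher and 1 lower against the mean. Leaving out 1 GMP replicate gave 5172 to 9888 genes past the threshold for GMP against CMP (6506 with all; 9888 without replicate 1) and 612 to 868 for the Prss34 class (1025 with all; 612 without replicate 2). For the other reversals and lost calls the cause was not tested. No paired analysis was possible between gates because CMP and LMPP have 1 library each. Between classes, the fit with no replicate block called 3652 genes for the Elane class instead of 4452 with the block. Calls of the 8 genes lost without the block were Ltb4r1 in the Elane (edgeR adjusted p = 0.0518) and Prss34 classes (0.062), Ptgs1 in the Irf8 (0.111) and Prg2 classes (0.0666) and in Elane against Prss34 cells (0.0546), and Alox5ap in Irf8 against Cma1 cells (0.0636). The block changed no other call of the 8 genes. The Cma1, Prss34 and Prg2 classes rest on 123 to 351 cells, so depth limits what can be said of Ltc4s and Ptgs2 there.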
